A study of Mus musculus with 6 samples.

Results

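The genes described here are those of the plasminogen activators, their cell surface receptor and a group of serpins, the serine protease inhibitor family. The set held 7 genes, and each was taken from the array row that the platform annotation gives to that gene alone. Rows were found for 5 of the 7, namely Plau, Plat, Plaur, Serpinb2 and Serpinf1, each with 1 row, among 14860 genes tested in all. Serpine2 and Serpinh1 were not analysed here.

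Expression was measured on 6 Affymetrix arrays of cultured cells labelled as mouse aortic endothelial cells, from animals aged 4 weeks on a C57/BL6 background (5 generations). The 3 arrays labelled ERK1/2 null came from cells infected with a lentivirus carrying Cre recombinase; the genotype field writes egfp-Cre for replicate 1 and Cre for replicates 2 and 3, while the source field writes egfp-Cre for all 3. The 3 arrays labelled ERK1/2 wild type came from cells given a lentivirus with green fluorescent protein and no Cre. The genotype field reads Erk1-/-; Erk2fl/fl for both groups, so that by this field the wild type cultures carry the Erk1 deletion too, and the groups differ in Cre and in what Cre removes from the floxed gene. If null replicates 2 and 3 carried Cre alone, they also differed from the wild type cultures in green fluorescent protein. The 2 fields disagree on this. The rows of the 2 kinase genes were not used here, and the labels were not checked by their levels. The titles call the samples biological replicates, but no label ties a number to an animal or an isolation, so the p-values measure the spread between these samples.

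Most endothelial markers were dim in both groups, so the endothelial identity of the cultures rests on the labels and was not tested. Of 20 measured, 15 lay in the dimmest 33.3% of all genes, among them Pecam1 (3.97 ± 0.23 in null and 3.77 ± 0.34 in wild type, log2 scale, SD, n = 3), Cdh5 (3.48 ± 0.14 and 3.89 ± 0.53) and Kdr (2.94 ± 0.12 and 3.36 ± 0.56). None of the 20 was called by limma (2 had an unadjusted p under 0.05, 2 were called higher with the replicate block and 1 without replicate 1 of both groups). In the same fits 11.5%, 16.7% and 7.97% of all genes were called. The mean level of the 13 fibroblast markers lay between 8.001 and 9.70 on null arrays and between 7.04 and 7.78 on wild type arrays. The second principal component, with 25.5% of the variance, set replicate 1 of both groups apart from the other arrays, and the results of the members and list counts that change are therefore also given without replicate 1.

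Plasminogen is a circulating proenzyme, and the activators cut it to plasmin, a protease that dissolves fibrin and degrades matrix. Plau encodes the urokinase-type activator, which Plaur, a lipid-anchored receptor, holds at the cell surface, and Plat encodes the tissue-type activator that endothelial cells release into blood. Serpinb2 encodes plasminogen activator inhibitor type 2, which blocks urokinase, whereas Serpinf1 encodes pigment epithelium-derived factor, a secreted serpin that inhibits no known protease and restrains vessel growth. The Plau and Plaur promoters are well studied targets of AP-1 and ETS factors, which growth factor signalling through ERK activates.

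Promoter sequences from RefSeq (GRCm38.p6) were found for 3 of the 5 genes, Plaur, Serpinb2 and Serpinf1. Those of Plaur and Serpinb2, the members that were lower within every pair of arrays, are shown 5′ to 3′ as the 250 bases before the annotated start, on the + strand in both cases, with the AP-1 match TGANTCA in capitals. The Plaur stretch lies at chr7:24462233-24462482, and the Serpinb2 stretch, before the more upstream of 2 annotated starts, at chr1:107511173-107511422.
Plaur: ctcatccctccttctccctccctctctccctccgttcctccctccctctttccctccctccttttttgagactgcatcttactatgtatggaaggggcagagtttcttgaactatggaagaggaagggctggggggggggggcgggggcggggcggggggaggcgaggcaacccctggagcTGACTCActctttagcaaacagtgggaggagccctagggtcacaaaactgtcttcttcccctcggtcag
Serpinb2: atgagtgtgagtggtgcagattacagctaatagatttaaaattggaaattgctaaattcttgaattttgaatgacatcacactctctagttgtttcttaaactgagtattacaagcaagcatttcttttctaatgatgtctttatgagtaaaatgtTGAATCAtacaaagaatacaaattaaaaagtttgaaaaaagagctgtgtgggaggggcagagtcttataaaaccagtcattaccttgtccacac

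Both strands were searched for 4 motifs. The AP-1 letters TGANTCA occurred once in Plaur, from base 69 to base 63 before the start, and once in Serpinb2, from base 94 to base 88, and were not in the Serpinf1 window; 6.75% of the 32851 promoter windows in the table hold them. The ETS-type letters AGGAAG occurred once in Plaur (29.5% of windows) and the GC box GGGCGG occurred 3 times there, 2 of the matches overlapping by 1 base (32.7% of windows). The TATA letters TATAAA occurred once in Serpinb2, from base 29 to base 24 before the start (12.4% of windows). The 2 stretches differed in composition, with 59.6% G or C in Plaur and 32.4% in Serpinb2. A match describes the letters of the window and does not show that a factor binds there.

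**Figure D1:**
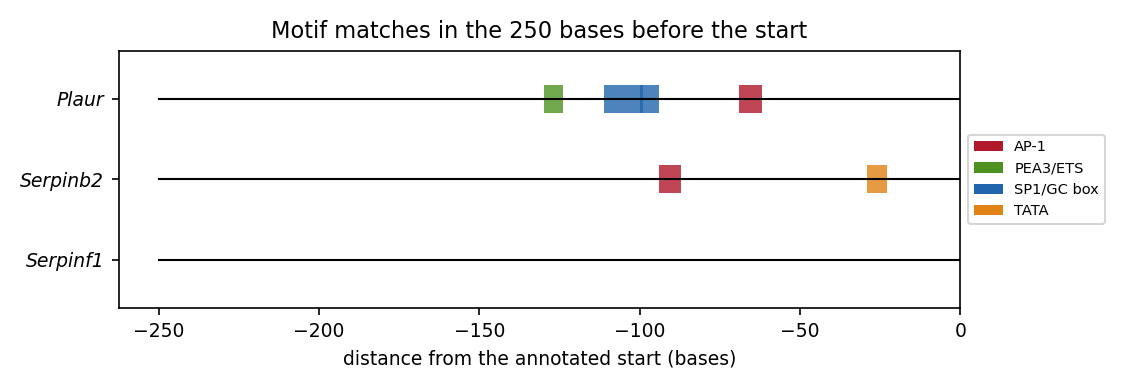
Matches of 4 motifs (coloured blocks) in the 250 bases before the annotated start of 3 genes; the horizontal axis is the distance from the start in bases. Plaur and Serpinb2 each hold 1 AP-1 match, at 69 to 63 and 94 to 88 bases before the start, and Serpinf1 holds no match to any of the 4.

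The comparison asked whether these transcripts differ between ERK1/2 null and wild type cultures. Plaur was 2.18-fold lower in null cultures and was called by limma. Serpinb2 was 4.21-fold lower on average, with a spread between replicates so wide that it was called only when arrays of the same replicate number were compared with each other. Plau, Plat and Serpinf1 were not called in either fit. The threshold for a call was a limma adjusted p below 0.05 (Benjamini-Hochberg over 14860 genes). By this rule 1 of the 5 members was lower and 0 were higher; of all genes 11.5% were called, 6.12% lower and 5.35% higher. With the replicate number as a block 2 of 5 were lower and 0 higher, where 16.7% of all genes were called, 7.76% lower and 8.92% higher. The median log2 difference of the 5 members was −0.79, the value of Plau alone, beside 0.02 over all genes. Plat and Serpinf1 lay above 0. The counts of calls are too small to set the members apart from other genes.

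**Figure D2:**
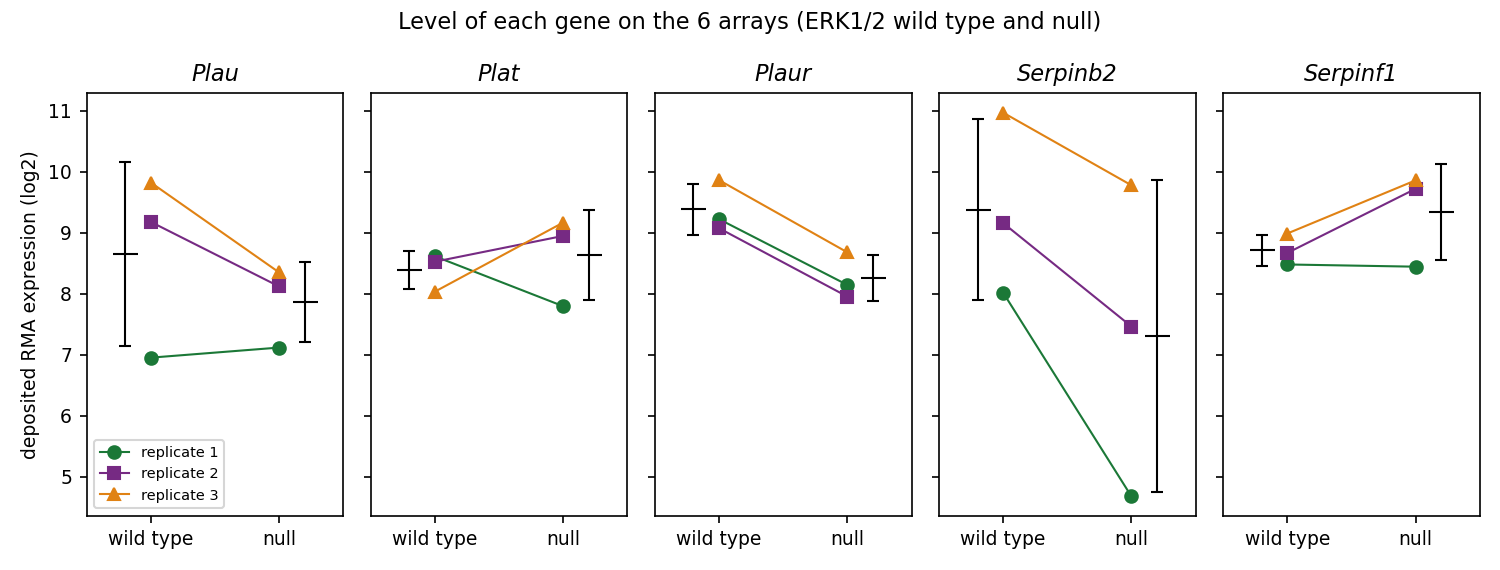
Deposited log2 RMA expression of the 5 genes on the 6 arrays, with wild type on the left and null on the right of each panel; coloured lines join arrays of the same replicate number, and black bars give the mean ± SD (n = 3). The 3 Plaur lines run parallel between 7.95 and 9.86, whereas Serpinb2 spans 4.68 to 10.97.

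Plaur read 8.14, 7.95 and 8.68 on the null arrays of replicates 1, 2 and 3 and 9.22, 9.07 and 9.86 on the wild type arrays (log2 scale). Every null array was below every wild type array, and Plaur was the 1 member of 5 whose groups did not overlap; the groups of 31.0% of all genes did not overlap (14.6% lower and 16.5% higher in null). The means were 8.26 ± 0.38 and 9.39 ± 0.42 (SD, n = 3), a log2 difference of −1.13 (SE 0.27, 95% interval −1.79 to −0.47, limma adjusted p = 0.048). The call lay at the threshold and was lost whichever array was left out (adjusted p 0.052 without null replicate 3 to 0.151 without null replicate 2), after quantile normalization (0.057) and without replicate 1 of both groups (0.131). Within pairs of the same number the differences were −1.08, −1.12 and −1.18, a spread far below that between arrays of a group. With the replicate block the 95% interval narrowed to −1.42 to −0.84 (limma adjusted p = 0.0051), and Plaur was still called with the block when any 1 pair was left out (adjusted p 0.011 to 0.043). Blocked fits without a pair hold few arrays, so their error leans on the variance that limma shares over all genes.

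Serpinb2, the inhibitor of urokinase, read 4.68, 7.46 and 9.78 on null arrays and 8.02, 9.16 and 10.97 on wild type arrays. The groups overlapped, since null replicate 3 was above wild type replicates 1 and 2. Its arrays spread more than those of any other member: the highest null array was 34.3-fold above the lowest, and the highest wild type array 7.73-fold above the lowest. The log2 difference was −2.08 (SE 1.35, 95% interval −5.33 to 1.18, limma adjusted p = 0.41) and was not called. Null was lower within all 3 pairs, by log2 differences of −3.34, −1.70 and −1.19, and with the replicate block Serpinb2 fell (95% interval −3.12 to −1.03, limma adjusted p = 0.029). Plaur and Serpinb2 were the 2 members lower within all 3 pairs; 23.3% of all genes were. No member was higher within all 3 pairs, whereas 28.3% of all genes were. The blocked call of Serpinb2 was lost without pair 2 (log2 difference −2.27, limma adjusted p = 0.105) and without pair 3 (−2.52, 0.061), and kept without pair 1 (−1.44, 0.0079). Without the block, Serpinb2 was not called without replicate 1 of both groups (95% interval −3.78 to 0.89, limma adjusted p = 0.43). Macrophages and mesothelial cells are known sources of Serpinb2, and 10 of 12 macrophage markers lay in the dimmest 33.3% of genes with 0 called (0 at an unadjusted p under 0.05, 1 higher with the block). Of 8 mesothelial markers 4 lay in the dimmest 33.3% of genes, and Upk3b alone was called, higher in null (1.58, SE 0.32, limma adjusted p = 0.027, 0.096 without null replicate 2). Upk3b was called in 1 of the 6 fits that left out an array. Of all genes 11.5% were called without the block and 16.7% with it. In these bulk cultures fewer cells that express a gene and less of its RNA per cell cannot be told apart.

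Plau, the urokinase gene, read 7.12, 8.12 and 8.35 on null arrays and 6.95, 9.18 and 9.82 on wild type arrays. Replicate 1 was the lowest array in both groups, and the groups overlapped, with wild type replicate 1 below all 3 null arrays. The log2 difference was −0.79 (SE 0.76, 95% interval −2.61 to 1.03, limma adjusted p = 0.59), and the interval allows both a large decrease and an increase of about 1 log2 unit. The pairs differed by 0.17, −1.06 and −1.47, lower in null in 2 of 3. With the replicate block the adjusted p was 0.17. Without wild type replicate 1 the log2 difference was −1.64 (adjusted p = 0.072) and without wild type replicate 3 it was −0.20. Without replicate 1 of both groups it was −1.27, and the adjusted p was 0.0501 unblocked and 0.011 blocked.

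Plat, the tissue-type activator gene, read 7.79, 8.95 and 9.17 on null arrays and 8.61, 8.52 and 8.03 on wild type arrays. Null replicate 1 was the lowest array of all 6 and null replicates 2 and 3 were the highest, so the groups overlapped. The log2 difference was 0.25 (SE 0.38, 95% interval −0.66 to 1.16, limma adjusted p = 0.76; 0.73 with the replicate block). The pairs moved in opposite directions, at −0.82, 0.42 and 1.13. Without null replicate 3 the difference was −0.02, without null replicate 1 it was 0.67, and without replicate 1 of both groups 0.78 (adjusted p = 0.108; 0.076 with the block).

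Serpinf1, the gene of the secreted serpin that restrains vessel growth, read 8.44, 9.72 and 9.86 on null arrays and 8.48, 8.67 and 8.99 on wild type arrays. Null replicates 2 and 3 stood above all wild type arrays, whereas null replicate 1 stood below them. The log2 difference was 0.63 (SE 0.39, 95% interval −0.30 to 1.56, limma adjusted p = 0.38), and the pairs differed by −0.04, 1.05 and 0.87. With the replicate block the unadjusted 95% interval was 0.03 to 1.22, and the limma adjusted p was 0.14. Without null replicate 1 Serpinf1 was called higher (1.08, adjusted p = 0.029), as it was without replicate 1 of both groups (0.96, adjusted p = 0.043; 0.020 with the block). Fibroblasts are a known source of Serpinf1. The mean level of the 13 fibroblast markers was 8.001, 9.33 and 9.70 on null arrays 1, 2 and 3 and 7.04, 7.19 and 7.78 on wild type arrays. Of the 13, 3 rose (10 with the replicate block, 7 without replicate 1 of both groups), with a median log2 difference of 1.39. In the same fits 11.5%, 16.7% and 7.97% of all genes were called. Col3a1 rose by 2.17 (limma adjusted p = 0.0059), Mfap5 by 2.89 (0.047, 0.150 without null replicate 2) and Col1a2 by 0.82 (0.036, 0.110 without null replicate 3). Of the 6 fits that left out an array, 6 called Col3a1, 2 Mfap5 and 1 Col1a2. Col1a2 was not called after quantile normalization (limma adjusted p = 0.075). The part of fibroblasts in the Serpinf1 values was not tested.

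**Figure D3:**
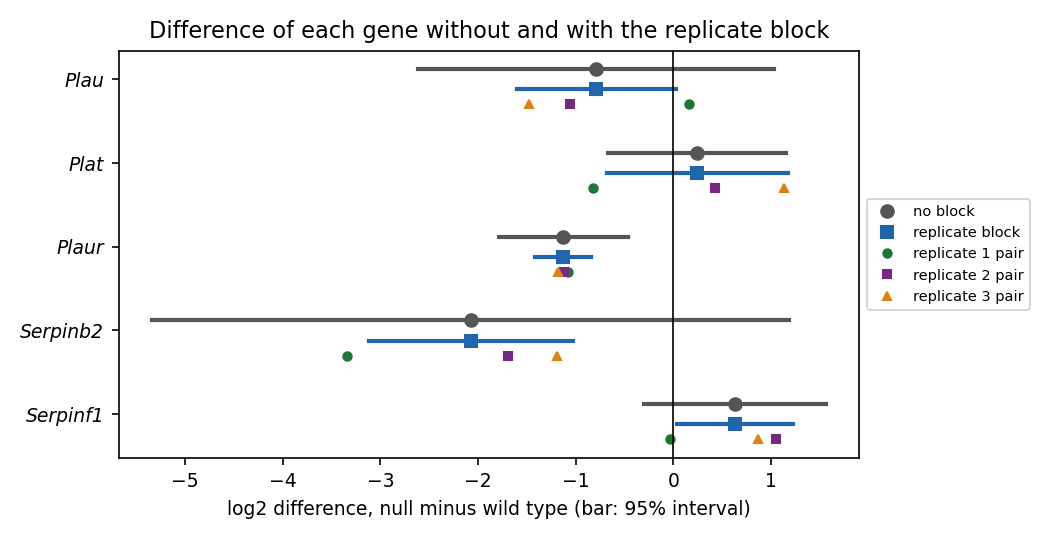
Log2 difference of each gene, null minus wild type, with its 95% interval from limma without a block (grey) and with the replicate block (blue), and the differences within the 3 replicate pairs (small symbols). The interval of Plaur lies below 0 in both fits and that of Serpinb2 only with the block. That of Serpinf1 lies above 0 only with the block, and the pairs of Plat fall on both sides of 0. The intervals are not adjusted for the number of genes.

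The 28 other measured genes of the plasminogen system covered the proenzyme, further inhibitors, binding sites and clearance receptors. Of these 1 rose and 1 fell, where 11.5% of all genes were called, and the median log2 difference was 0.15. Lrp8, a receptor of the lipoprotein receptor family, fell by 1.10 (7.29 ± 0.03 against 8.39 ± 0.18, SD, n = 3; limma adjusted p = 0.0049) and was called in all 6 fits that left out an array. Serpini1, which encodes neuroserpin, an inhibitor of the tissue-type activator, rose by 0.73 (6.99 ± 0.11 against 6.26 ± 0.28, limma adjusted p = 0.040). Serpini1 was called in 1 of the 6 fits that left out an array (0.122 without null replicate 3) and not after quantile normalization (0.062). The fit with the replicate block called 3 higher and 2 lower, where it called 16.7% of all genes. The clearance receptor gene Vldlr (2.13, limma adjusted p = 0.23, blocked 0.028) and Pdgfd, a growth factor that is latent until a protease cuts it (2.33, limma adjusted p = 0.15, blocked 0.0023), rose with the block. The integrin subunit gene Itgb3 fell with it (−1.33, limma adjusted p = 0.19, blocked 0.025). Without replicate 1 of both groups 3 were higher, namely Pdgfd (adjusted p = 0.0081), Hgf (0.030) and Kng1 (0.031), and 2 lower, Lrp8 (0.035) and Itgb3 (0.046). Kng1 was among the dimmest 33.3% of genes.

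Some genes of this list that did not pass are given for their known roles. The annexin gene Anxa2 and its partner S100a10, which together bind plasminogen and its tissue-type activator on endothelial cells, differed by −0.10 and −0.14 (limma adjusted p = 0.70 and 0.73). The plasminogen receptor gene Plgrkt differed by 0.61 (limma adjusted p = 0.060) and Lrp1, which takes up complexes of activator and inhibitor, by 0.47 (0.080). Plasminogen itself (Plg) read 2.90 to 3.33 on the 6 arrays and Serpinf2, the inhibitor of plasmin, 4.05 to 4.27; both were among the dimmest 33.3% of genes, a range in which RMA compresses differences.

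Of 31 other measured serpin genes 5 rose and 0 fell (5.35% of all genes were called higher), with a median of 0.14; 22 of the 31 lay in the dimmest 33.3% of genes. With the replicate block 6 rose and 0 fell (8.92% of all genes were called higher). Serping1, the inhibitor of complement C1, rose by 4.15 (10.87 ± 0.71 against 6.72 ± 0.38, SD, n = 3; limma adjusted p = 0.0026). Serpina3n, an acute-phase serpin, rose by 3.44 (13.11 ± 0.25 against 9.67 ± 0.53; limma adjusted p = 0.0019), and Serpinb9, an intracellular inhibitor of granzyme B, by 2.80 (9.60 ± 0.42 against 6.80 ± 0.61; limma adjusted p = 0.0065). These 3 were called in all 6 fits that left out an array. Serpinb6b rose by 3.07 (limma adjusted p = 0.021, 0.080 without null replicate 2) and was called in 1 of the 6 fits that left out an array. Serpini1 is the fifth gene. Serpinb9b was not called without the block (2.77, limma adjusted p = 0.066) and rose with it (blocked 0.0049). Without replicate 1 of both groups 7 serpins were higher and 0 lower, where 7.97% of all genes were called in either direction. Serpinb9b (limma adjusted p = 0.0073), Serpinb6c (0.0073) and Serpinb1b (0.043) passed there, and Serpini1 did not (0.147). Serpinb6c and Serpinb1b were among the dimmest 33.3% of genes. The b6 and b9 serpins are families of similar copies, and signal shared between copies could not be separated.

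**Figure D4:**
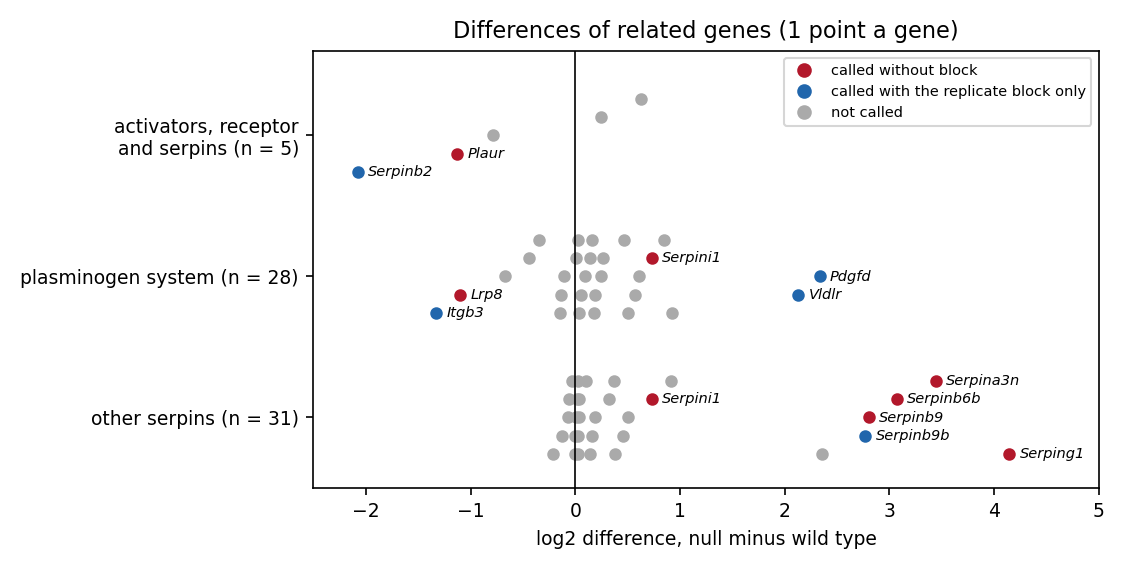
Log2 difference, null minus wild type, of the 5 genes, of 28 other genes of the plasminogen system and of 31 other serpin genes, 1 point a gene, coloured by limma call; the vertical position within a row has no meaning and 5 genes stand in both lists (Serpina5, Serpinb6a, Serpinb8, Serpinf2 and Serpini1). Plaur and Serpinb2 lie at −1.13 and −2.08, and the other serpins that were called lie between 0.73 and 4.15.

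The genome neighbours of the members were taken as the 4 protein-coding genes on each side in the GRCm38.p6 gene table. Serpinb2 lies in a cluster of clade B serpins on chromosome 1, and of its neighbours Serpinb11, Serpinb7, Serpinb10 and Serpinb8 differed by 0.01, 0.37, −0.03 and 0.50, none called (limma adjusted p 0.35 to 0.97). Serpinb7, Serpinb10 and Serpinb11 were among the dimmest 33.3% of genes. Next to Serpinf1 on chromosome 11, Serpinf2 differed by 0.02. Over all 5 members 30 neighbours were measured and 2 were called, 4 with the replicate block, where 11.5% and 16.7% of all genes were called. These counts do not set the neighbours apart from other genes. Ap3m2, next to Plat, rose by 0.92 (limma adjusted p = 0.013; 0.057 without null replicate 2), and the replication protein gene Rpa1, the second gene from Serpinf1, fell by 1.24 (limma adjusted p = 0.0083). With the block Kcnn4, the third gene from Plaur, fell too (−1.85, limma adjusted p = 0.21, blocked 0.010), and Kat6b, the fourth from Plau, rose (0.75, 0.068, blocked 0.033).

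The genes most like each member over the 6 arrays were sought among 4238 other genes that span at least 1 log2 unit; with 6 arrays that share groups and replicate numbers, high correlations are common and carry no test. For Plaur they were Coq7, Smurf2 and Olfr347 (Pearson r 0.993, 0.990 and 0.988). For Serpinb2 they were Pdlim1, Lrp12 and Prr5 (0.980, 0.975 and 0.974) and for Plau Plekhb1, Nppb and Tmcc3 (0.996, 0.992 and 0.991). For Plat they were Polr2c, Ankrd55 and Fos (0.967, 0.956 and 0.948) and for Serpinf1 4930486L24Rik, Olfml3 and Lrp11 (0.997, 0.991 and 0.991). None of these 15 genes was called without the block, and the nearest to the threshold was Coq7 (log2 difference −0.65, limma adjusted p = 0.051). With the replicate block 4 were called, all lower, namely Coq7 (blocked adjusted p = 0.023), Smurf2 (0.036), Olfr347 (0.016) and Pdlim1 (0.018). Olfr347, Plekhb1, Polr2c and 4930486L24Rik were among the dimmest 33.3% of genes.

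Among 22 measured genes of blood coagulation and its control, the factor VIII gene F8 alone was called, higher by 0.86 (limma adjusted p = 0.030, 0.107 without null replicate 2, and 0.069 after quantile normalization). F8 was called in 1 of the 6 fits that left out an array. For this list and those that follow, 11.5% of all genes were called without the block and 16.7% with it. Lists drawn up around Serpinh1, the collagen chaperone that was not analysed here, gave 1 higher and 0 lower of 25 genes of collagen folding and processing (3 and 0 with the block), the gene being Loxl2, a lysyl oxidase (2.71, limma adjusted p = 0.04997, blocked 0.0023; 0.138 without wild type replicate 2). Of 15 heat shock genes 2 rose and 4 fell, where 11.5% of all genes were called. Without replicate 1 of both groups 2 rose and 1 fell, where 7.97% of all genes were called. Cryab, a small heat shock protein, rose (1.24, limma adjusted p = 0.0049). Hsph1, a chaperone of the Hsp110 family, fell (−1.57, limma adjusted p = 0.023, 0.079 without null replicate 3). Dnajb4 rose too (1.73, limma adjusted p = 0.039, 0.125 without wild type replicate 3, 0.055 after quantile normalization). The other genes that fell included Hspa4l (−0.63, limma adjusted p = 0.033, 0.111 without null replicate 2) and Ahsa1 (−0.63, limma adjusted p = 0.025, 0.083 without wild type replicate 3). Of the 6 fits that left out an array, 6 called Cryab, 2 Hsph1, 1 Dnajb4, 1 Hspa4l and 0 Ahsa1. Of 14 smooth muscle and pericyte markers the myosin kinase gene Mylk was called, higher by 1.37 (0.018; 0.060 without null replicate 3; 5 markers with the block), and of 7 adipocyte markers 0 were called (1 at an unadjusted p under 0.05, 1 higher with the block).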

How the data were processed

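Expression was measured on 6 Affymetrix arrays. The deposited values are on a log2 scale and were made by the authors with RMA (background correction, normalization between arrays, summary of probes), per the submitters' processing notes; the version is not given in the sources used here, and the scale was inferred from their range (0.74 to 14.32). RMA compresses differences of dim rows. Array values carry no depth, and the number of arrays limits the precision.

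Of 16775 rows, 14996 named 1 gene, 1019 named several and 760 were not listed; the row with the highest mean stood for a gene, which gave 14860 genes. Symbols were updated from the GRCm38.p6 gene table (14941 rows matched). Groups came from the titles. Null and wild type were compared with limma 3.58.1 (lmFit, eBayes, 2-sided, Benjamini-Hochberg) in R 4.3.3, with tables joined in Python 3.11.15 and pandas 2.3.3. The fit without a block was tried on simulated arrays that held no pairing, which does not cover the blocked fit. The main fit had no block. Deviations from group means correlated between equal replicate numbers (r 0.57, 0.35 and 0.45 across genes; at most 0.04 otherwise), so the numbers, given in the titles, were taken to pair the arrays.

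The members and gene lists were chosen with earlier results of these data known. Genes named were the members, up to 3 called genes of each list in each direction, and the 3 genes most correlated with each member. Genome neighbours, endothelial markers, further genes of the plasminogen list and genes called only in an alternative fit were named after their values were seen. Alternatives were normalization, centring, a level filter, the prior, array weights, the row rule, the block, leaving out arrays and a threshold of 0.01. Chosen after seeing the data were the fits without replicate 1 of both groups and the blocked fits that leave out a pair.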

Additional observations from a re-analysis of the deposited data

How the results depend on the processing

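The decrease of Plaur lost the threshold after quantile normalization (log2 difference −1.15), without replicate 1 of both groups (−1.15) and without any single array (−1.34 to −0.89). Serpinb2 passed with the replicate block (−2.08) and with the block without replicate 1 of both groups (−1.44), and lay between −3.31 and −0.76 without single arrays. The block without replicate 1 of both groups also called Plau (−1.27) and Serpinf1 (0.96), the latter also without the block (0.96). Without single arrays Plau lay between −1.64 and −0.20 and Serpinf1 between 0.37 and 1.08. Plat turned to −0.019 without null replicate 3 (up to 0.67 without null replicate 1) and to −0.20 with the block without replicate 3 of both groups. Members called (1 of 5) became 0 after quantile normalization and at a threshold of 0.01, 0 or 1 without single arrays, 2 with the replicate block and 4 with the block without replicate 1 of both groups. The last fit called 2053 of all genes (13.8%). At an unadjusted p under 0.05 limma gave 1 member, where 25.7% of all genes passed, and 3 with the block, where 31.5% did. Calls among all genes went from 1705 to between 730 and 1331 without single arrays, 545 at the threshold of 0.01, and 703 and 806 with the block without replicates 2 and 3 of both groups. Smaller fits hold fewer arrays, and the blocked fits without a pair lean on the variance that limma shares over all genes. Genes called in the plasminogen system went from 2 to 5 with the replicate block and to 5 without replicate 1 of both groups. Over all genes calls went from 1705 to 2479 (16.7%) and to 1184 (7.97%) in the same fits. The cause of the other changes was not tested. All 5 members passed the level filter.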
